A study of Mus musculus with 14 samples.

Results

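The 10 genes described here encode the enzymes that hydroxylate and crosslink collagen. They are the lysyl oxidases Lox, Loxl1, Loxl2, Loxl3 and Loxl4, the lysyl hydroxylases Plod1, Plod2 and Plod3, and the prolyl 4-hydroxylase alpha subunits P4ha1 and P4ha2. They were chosen by symbol, and all 10 were found among the 55487 gene identifiers of each count table. RNA sequencing was done on bone marrow mesenchymal stromal cells (MSC) and on sorted stem and progenitor cells of the mouse, to ask how IL-1β, an inflammatory cytokine, changes gene expression in each. The MSC came from the marrow of wild-type C57BL/6 mice, were grown for 21 days, and then received PBS (2 libraries, replicates 2 and 3) or IL-1β at 5 ng/ml (2 libraries, replicates 1 and 2) for 72 h. The LSK (Lin-Sca1+c-kit+) cells, the fraction that holds stem cells, and the LK (Lin-c-kit+) cells, the later myeloid progenitors, carried a heterozygous Jak2V617F allele induced through Mx1Cre, in PBS and IL-1β groups alike. Their mice were lethally irradiated C57BL/6 recipients of induced Mx1Cre; Jak2VF/+ marrow, so that some host cells may remain, and were given PBS (3 libraries per population) or 0.5 μg of IL-1β (2 libraries per population) 3 times per week for 16 weeks. The labels give no age, and nothing in them says that the replicates of a group came from separate cultures or animals, so p-values measure the spread between these libraries, which may be technical.

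Collagen chains are hydroxylated inside the cell, before they fold into a triple helix. Prolyl 4-hydroxylases modify prolines, which stabilizes the helix, and lysyl hydroxylases modify lysines, which are later glycosylated or used for crosslinks. Lysyl oxidases act outside the cell, where they oxidize lysines and hydroxylysines of collagen and elastin to the aldehydes that join neighbouring molecules. In marrow fibrosis, a complication of myeloproliferative disease, stromal cells lay down an excess of such crosslinked fibres.

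The libraries held from 4393233 to 30871055 counted read pairs. The MSC libraries with PBS were the least alike of their population, with 1068 genes over 2-fold apart between replicates 2 and 3, against 48 between the IL-1β replicates. In LSK cells, PBS replicate 2 was 2951 and 3060 genes apart from replicates 1 and 3, which were 810 apart. The IL-1β replicates of LSK were 1907 genes apart. In LK cells the PBS pairs were 312 to 1021 genes apart and the IL-1β pair 441. The cultures labelled MSC also held much macrophage RNA. In each of these libraries the 18 macrophage markers summed to more than the 16 mesenchymal markers. Such sums do not measure the share of each cell type. The summed level of 18 macrophage markers was 26460 and 22690 CPM (the part of a library's read pairs that falls on a gene, scaled by TMM factors) with PBS and 44600 and 45790 CPM with IL-1β, and 8 of the 17 tested were called higher and 0 lower. Lyz2 made up most of that rise, at 7122 and 4796 CPM with PBS and 19840 and 20770 CPM with IL-1β. Of the 17, 14 lay above PBS in both IL-1β libraries and 3 (Cd68, Tyrobp and Fcer1g) lay below. Among all genes tested these shares were 31.3% and 29.8%, and 7.14% were called higher and 4.31% lower. The 16 mesenchymal markers summed to 3398 and 2041 CPM with PBS and to 4226 and 4737 CPM with IL-1β, with 1 of 14 tested called higher (Dcn) and 1 lower (S100a6). Among the mesenchymal markers, Pdgfra (21.3 to 37.2 CPM) and Prrx1 (52.2 to 81.3 CPM) were present, whereas Lepr had no count in either PBS library. With PBS, Nt5e had 2 and 3 counts and Lum 25 and 0. Ptprc, one of the macrophage markers, was at 297 to 413 CPM. In bulk libraries such as these, fewer cells of a type and less RNA per cell cannot be told apart.

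In MSC, 4 of the 5 hydroxylases were called higher with IL-1β, whereas Plod3 was not called. None of the 5 lysyl oxidases was called higher and 1, Loxl3, was called lower. The log2 fold changes of Lox (0.58 ± 0.60 SE) and Loxl2 (0.62 ± 0.48 SE) were larger than that of Plod3 (0.47 ± 0.13 SE), with larger errors. A missed call is thus no sign that they did not rise. Calls required an adjusted p under 0.05 in edgeR's quasi-likelihood test (Benjamini-Hochberg over all 13239 genes tested) together with a log2 fold change beyond 0.5 in either direction. By that rule 4 of the 10 members were higher and 1 lower, where 7.14% of all genes tested were called higher and 4.31% lower. The median log2 fold change of the 10 was 0.60, against 0.0044 for all genes tested, and 8 of the 10 were positive. Whether hydroxylases and oxidases differed from each other as families was not tested. The summed level of the macrophage markers was also higher in the same libraries, though not that of every marker. The part of macrophages in these results was not tested.

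**Figure D1:**
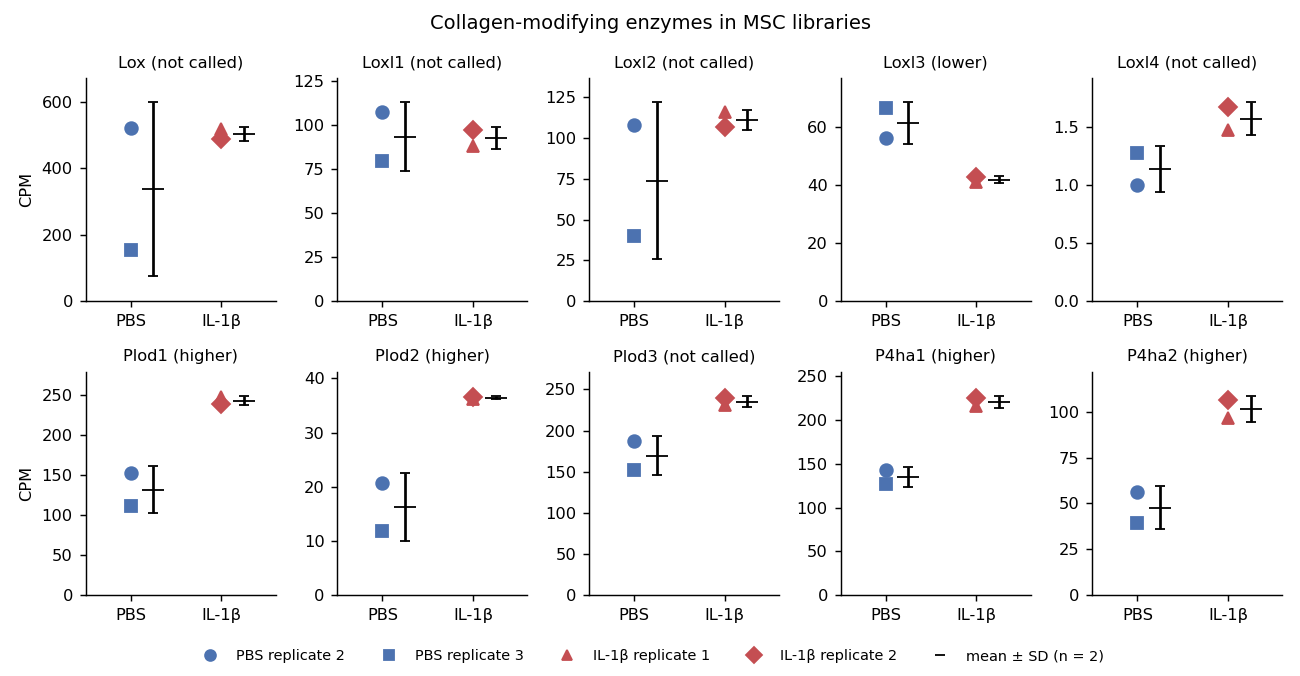
Level of each gene in the 4 MSC libraries, in CPM on axes that start at 0, with the mean ± SD of each treatment (n = 2) in black and the call in each title. The IL-1β points lie above both PBS points for Plod1, Plod2, Plod3, P4ha1, P4ha2 and, at a very low level, Loxl4, below both for Loxl3, and level with PBS replicate 2 for Lox and Loxl2.

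P4ha1 and P4ha2 are the catalytic subunits of prolyl 4-hydroxylase. P4ha1 (ENSMUSG00000019916, chr10:59323296-59373304, GRCm38) stood at 143 and 127 CPM with PBS and at 216 and 225 CPM with IL-1β. The treatments did not overlap, and differed by a log2 fold change of 0.71 ± 0.11 (SE, edgeR adjusted p = 0.0175). P4ha2 (ENSMUSG00000018906, chr11:54100095-54131665) stood at 56.3 and 39.3 CPM with PBS and at 96.7 and 106.5 CPM with IL-1β. It too did not overlap between treatments, with a log2 fold change of 1.102 ± 0.18 (SE, edgeR adjusted p = 0.0210). These are rises of 1.64-fold for P4ha1 and 2.15-fold for P4ha2. P4ha3, a further alpha subunit that is not among the 10, was at 12 and 13.6 CPM with PBS and 8.32 and 9.61 CPM with IL-1β and was not called.

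The lysyl hydroxylases differ in where they act. Plod1 hydroxylates lysines of the collagen helix, Plod2 those of the telopeptides at the chain ends, and Plod3 can also add sugars to hydroxylysine. Plod1 (ENSMUSG00000019055, chr4:147909753-147936767) was at 152 and 111 CPM with PBS and at 247 and 239 CPM with IL-1β. All IL-1β values were above all PBS values (log2 fold change 0.89 ± 0.17 SE, edgeR adjusted p = 0.0278). Plod2 (ENSMUSG00000032374, chr9:92542223-92608428) was the lowest of the 3, at 20.6 and 11.8 CPM with PBS and 36.3 and 36.7 CPM with IL-1β. It had the largest fold change among the 10 in MSC, 1.21 ± 0.26 on the log2 scale (SE, edgeR adjusted p = 0.0388), although its PBS replicates differed from each other more than those of Plod1. Plod3 (ENSMUSG00000004846, chr5:136987019-136996648) was at 187 and 153 CPM with PBS and at 230.5 and 239.9 CPM with IL-1β. These did not overlap either, but the log2 fold change of 0.47 ± 0.13 (SE) was under the size threshold and its edgeR adjusted p was 0.0704. Fitted with no filter on low counts, Plod3 was called (0.52, adjusted p = 0.00201).

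Among the lysyl oxidases, Lox itself varied most between libraries. Lox (ENSMUSG00000024529, chr18:52516067-52529867) stood at 521 and 153 CPM with PBS and at 518 and 488 CPM with IL-1β. PBS replicate 2 was thus level with both IL-1β libraries and PBS replicate 3 far below them, and the log2 fold change of 0.58 ± 0.60 (SE) was not called (edgeR adjusted p = 0.576). Loxl2 (ENSMUSG00000034205, chr14:69609068-69695834), which acts on basement membrane collagen as well, followed the same pattern, at 108 and 39.9 CPM with PBS and 116 and 107 CPM with IL-1β. Its log2 fold change was 0.62 ± 0.48 (SE, edgeR adjusted p = 0.460). Loxl1 (ENSMUSG00000032334, chr9:58287738-58313186), known for its role in elastic fibres, was at 107 and 79.5 CPM with PBS and 88.0 and 96.9 CPM with IL-1β, so that the IL-1β values lay between the PBS values. Loxl3 (ENSMUSG00000000693, chr6:83034173-83052562) was the one member called lower, from 56.3 and 66.6 CPM with PBS to 41.1 and 42.8 CPM with IL-1β. The drop was by 0.56 on the log2 scale (SE 0.12, edgeR adjusted p = 0.0406), with no overlap between treatments. Loxl4 (ENSMUSG00000025185, chr19:42593982-42612813) was close to the limit of detection, with 6 and 17 counts with PBS and 45 and 19 with IL-1β, or 0.999, 1.28, 1.47 and 1.67 CPM, and was not called (0.42 ± 0.45 SE, edgeR adjusted p = 0.579). Counting used strand, so that the genes Htra2 and Znhit1, which overlap Loxl3 and Plod3 on the opposite strand, were counted apart from them.

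Over the 10 members, 6 had higher levels in each IL-1β library than in each PBS library and 1 had lower levels. Among all genes tested in MSC these shares were 31.3% and 29.8%.

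The calls depended on single MSC libraries. Without PBS replicate 2, 7 members were called higher, with Lox at a log2 fold change of 1.73 (edgeR adjusted p = 2.83e-11), Loxl2 at 1.49 (4.55e-10) and Plod3 at 0.63 (1.39e-05) added to the 4, while over all genes 2038 were called higher and 1781 lower, against 945 and 570 with every library. Without PBS replicate 3, the same quantity was -0.05 for Lox (edgeR adjusted p = 0.751) and 0.053 for Loxl2 (0.733), and Loxl3, at -0.42, was under the size threshold (0.0129), with 1639 genes called higher and 1155 lower over all. In both fits the lone PBS library was assumed to vary like the IL-1β libraries, which were far more alike than the PBS libraries, which can make their adjusted p smaller than the PBS spread would give, and the calls are no sign of stability. In these fits the log2 fold changes of Plod1, Plod2, P4ha1 and P4ha2 lay between 0.63 for P4ha1 and 1.63 for Plod2. Without IL-1β replicate 1 or without IL-1β replicate 2, when the lone IL-1β library was assumed to vary like the PBS libraries, no member was called (edgeR adjusted p from 0.206 to 0.337 for those 4 and 0.438 and 0.326 for Loxl3), although their log2 fold changes moved by less than 0.1. Over all genes 38 were then called higher and 0 lower without IL-1β replicate 1, and 80 and 2 without replicate 2, so the counts of members moved with those of all genes.

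**Figure D2:**
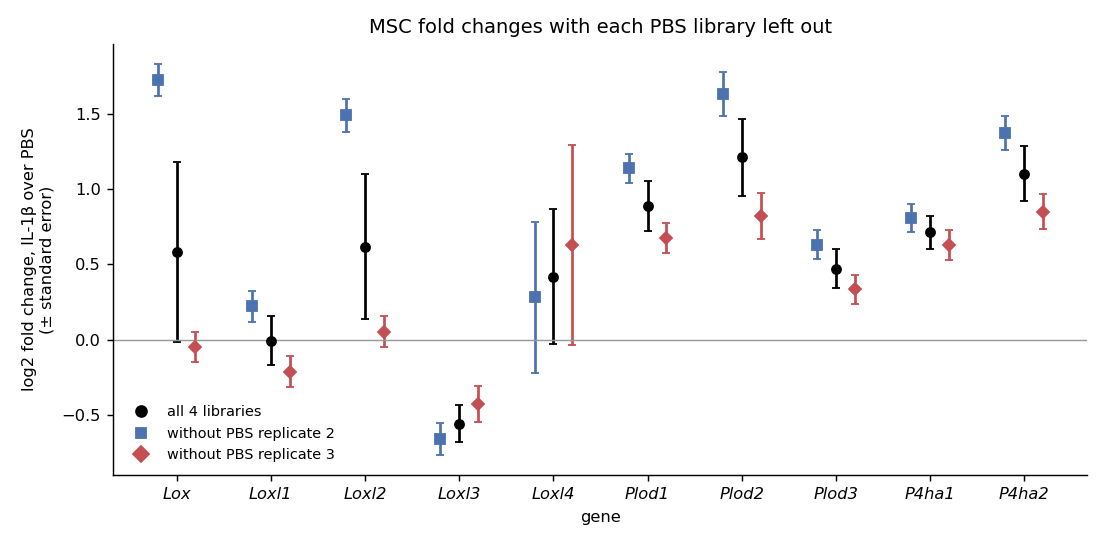
Log2 fold change of IL-1β over PBS in MSC for each gene, with its standard error, in all 4 libraries (circles), without PBS replicate 2 (squares) and without PBS replicate 3 (diamonds). Lox moves from 1.73 to -0.05 and Loxl2 from 1.49 to 0.053 with the PBS library left out, whereas Plod1, Plod2, P4ha1 and P4ha2 stay above 0.6.

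The members were also set against the summed counts of the 13 mesenchymal markers that are not collagens, within each MSC library. That sum was 1007 and 829 CPM with PBS and 955 and 928 CPM with IL-1β. Per 100 read pairs of these markers, Plod1 had 15.1 and 13.4 pairs with PBS and 25.8 and 25.7 with IL-1β. P4ha2 had 5.59 and 4.75 pairs with PBS, then 10.1 and 11.5 with IL-1β, Plod2 had 2.05 and 1.43 and then 3.80 and 3.95, and P4ha1 had 14.2 and 15.3 and then 22.6 and 24.3. The higher levels with IL-1β were present on that scale too. In that sum, S100a6 went from 372 and 481 CPM with PBS to 191 and 209 CPM with IL-1β. Cxcl12 went from 305 and 69.9 to 282 and 276 CPM, and Dcn from 63.3 and 83.9 to 235 and 212 CPM. The sum thus changed little while its genes moved in opposite directions, so it is no measure of mesenchymal content. Scaling to such a sum had to give much the same fold changes as CPM. Loxl3 had 5.59 and 8.03 pairs with PBS and 4.30 and 4.62 with IL-1β. Lox had 51.8 and 18.4 pairs with PBS and 54.2 and 52.6 with IL-1β, so that PBS replicate 3 was low on this scale as well. With libraries scaled to this sum, a scaling added after the data were seen, Plod1, Plod2 and P4ha2 were called (edgeR adjusted p = 0.0308, 0.0257 and 0.0163), whereas P4ha1 (0.67, adjusted p = 0.0622) and Loxl3 (-0.62, 0.138) were not.

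Levels of different genes can be compared only per length, and for that FPKM (CPM from one scaling of all 14 libraries, divided by the kilobases of exon in the gene) was used. In MSC with PBS, Lox was the highest at 84.0 ± 63.9 FPKM (SD, n = 2), followed by Plod3 at 45 ± 5.63, P4ha1 at 39.2 ± 2.67 and Loxl1 at 33.9 ± 6.49. The ranges of these neighbours overlapped. Plod1 came next at 23.3 ± 4.78 FPKM, then Loxl2 at 16.3 ± 10.4 and Loxl3 at 16.0 ± 2.17, again with overlapping ranges. P4ha2 at 9.17 ± 2.14, Plod2 at 3.60 ± 1.33 and Loxl4 at 0.325 ± 0.0619 FPKM each stood apart from the gene above. With IL-1β the order was Lox (129.5 ± 10.2 FPKM, SD, n = 2), P4ha1 (65.9 ± 0.381), Plod3 (64.0 ± 0.527), Plod1 (44.1 ± 2.64), Loxl1 (34.5 ± 1.08), Loxl2 (25.3 ± 2.35), P4ha2 (20.01 ± 0.640), Loxl3 (11.2 ± 0.0787), Plod2 (8.32 ± 0.240) and Loxl4 (0.459 ± 0.0246), with no overlap between neighbours. By their means, P4ha1 passed Plod3, Plod1 passed Loxl1 and P4ha2 passed Loxl3 in the order of levels. As a family, the lysyl oxidases summed to 206 and 95.0 FPKM with PBS and 209 and 193 FPKM with IL-1β, which overlap. The lysyl hydroxylases summed to 80.1 and 63.5 FPKM and then 119 and 114 FPKM, and the 2 prolyl 4-hydroxylase subunits to 51.8 and 45 FPKM and then 85.7 and 86.1 FPKM, neither with overlap.

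**Figure D3:**
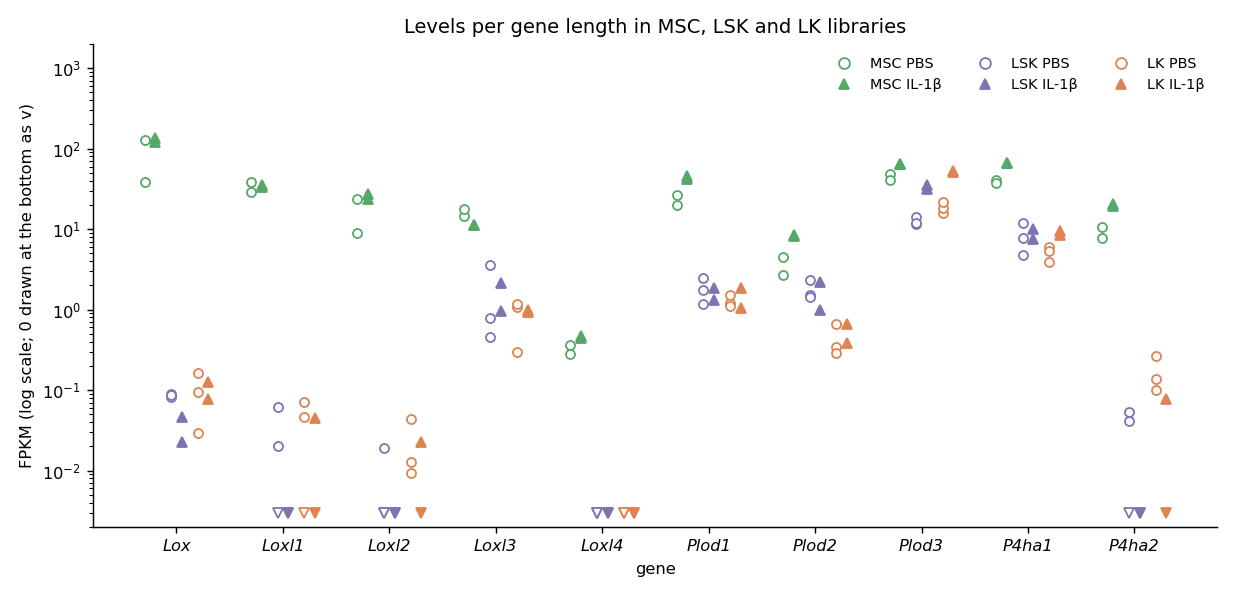
Level of each gene in every library, in FPKM on a log axis, for MSC (green), LSK (purple) and LK (orange) with PBS (open circles) and IL-1β (filled triangles), with values of 0 drawn at the bottom as downward triangles. Lox, Loxl1, Loxl2 and P4ha2 lie far lower in LSK and LK than in MSC, whereas Plod3 and P4ha1 are present in all 14 libraries.

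Promoter sequence was examined for 5 of the 10 members (Plod1, Plod3, P4ha1, P4ha2 and Loxl4), with starts from a RefSeq table of the GRCm38.p6 build. The promoters of Lox, Loxl1, Loxl2, Loxl3 and Plod2 were not examined, so the counts below do not cover them. Collagen hydroxylase genes are known targets of hypoxia-inducible factors, whose binding element has the core ACGTG (called the A core here). Its variant that starts with G, namely GCGTG, is called the G core. The 250 bases upstream of the start are given for 3 of the genes that rose in MSC, 5′ to 3′ on the strand of the gene, with either core, on either strand, in capitals.
P4ha1: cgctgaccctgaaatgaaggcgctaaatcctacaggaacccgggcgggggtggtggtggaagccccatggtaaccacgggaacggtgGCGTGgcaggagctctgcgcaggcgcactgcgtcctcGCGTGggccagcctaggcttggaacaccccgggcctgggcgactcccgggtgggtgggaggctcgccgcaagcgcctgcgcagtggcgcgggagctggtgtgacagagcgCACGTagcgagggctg
P4ha2: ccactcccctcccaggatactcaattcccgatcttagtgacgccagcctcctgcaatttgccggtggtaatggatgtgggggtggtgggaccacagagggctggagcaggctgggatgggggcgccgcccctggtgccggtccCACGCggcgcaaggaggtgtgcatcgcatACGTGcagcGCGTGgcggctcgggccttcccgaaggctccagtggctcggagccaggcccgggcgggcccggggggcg
Plod1: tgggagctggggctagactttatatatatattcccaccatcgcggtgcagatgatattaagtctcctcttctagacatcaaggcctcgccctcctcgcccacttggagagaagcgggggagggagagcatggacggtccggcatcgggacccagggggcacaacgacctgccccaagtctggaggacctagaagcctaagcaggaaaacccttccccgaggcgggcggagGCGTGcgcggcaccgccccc
The windows are chr10:59323046-59323295 on the plus strand for P4ha1, chr11:54100674-54100923 on the plus strand for P4ha2, and chr4:147936777-147937026 on the minus strand for Plod1. The P4ha2 window lies inside an intron of a longer annotated P4ha2 transcript. P4ha1 and P4ha2 each held 1 A core and 2 G cores, and Plod1 held 1 G core. Plod3, whose window overlaps exons of Znhit1 and is not printed, held 1 A core and 3 G cores, and Loxl4 held 1 G core. The A core was present in 16.6% of all 32851 such windows, the G core in 28.2% and either in 38.6%, so the cores are common. The members' windows were also richer in G and C (55.6% to 76%) than the median window (52.4%). Neither TGACTCA, the AP-1 element, nor CAGACA, a SMAD element, was found in these 5 windows on either strand, against 4.46% and 17.1% of all windows. A match is only a match of letters, and no binding was measured here.

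The lists of related genes in MSC are read against the 7.14% of all genes called higher and the 4.31% called lower. Of 15 genes that assist collagen hydroxylation and folding, 14 were tested and 1 was called higher, Tmem38b, an endoplasmic reticulum ion channel (log2 fold change 0.64). Their median log2 fold change was 0.14. P4hb, the beta subunit that forms the active enzyme with P4ha1 or P4ha2, was at 668 and 569 CPM with PBS and at 702 and 748 CPM with IL-1β (0.23 ± 0.13 SE, edgeR adjusted p = 0.282) and was not called. Serpinh1, the collagen chaperone HSP47, had a log2 fold change of -0.26 (adjusted p = 0.406) and Fkbp10, a partner of lysyl hydroxylase, of -0.35 (0.0950), neither called. Of 5 procollagen processing genes tested 1 was called higher, Bmp1, the procollagen C-proteinase that also cleaves the Lox propeptide (0.56, adjusted p = 0.0222).

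Of 10 collagen chains, the substrates of these enzymes, 1 was called higher, Col6a1 (log2 fold change 0.64, edgeR adjusted p = 0.0170). Col3a1 stood at 510 and 179 CPM with PBS and at 1323 and 1495 CPM with IL-1β, but its log2 fold change of 2.04 ± 0.53 (SE) did not pass the test (adjusted p = 0.0851). The study itself, with DESeq2, reported a significant rise of Col3a1 in its MSC RNA sequencing. It also reported that rise by RT-qPCR and immunofluorescence. Col1a1 was at 813 and 405 CPM and then 1085 and 1310 CPM (adjusted p = 0.147). PBS replicate 3 was the lowest library for Lox, Loxl2, Col1a1 and Col3a1 alike. Among 11 tested elastic fibre genes and Lox partners, Fbln1 (1.86) and Dcn (1.596) were called higher, whereas the matrix proteins Fn1 (-0.59) and Postn (-0.11) were not called.

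Genes that share regulators or cofactors with the hydroxylases were counted as well. Of 20 hypoxia-inducible genes other than the members, 6 were called higher and 1 lower, with a median log2 fold change of 0.37. Those higher were Vegfa (1.52), Slc2a1 (0.91), Egln3 (1.59), Hk2 (0.65), Pfkfb3 (1.26) and Ero1l (0.88), and Bhlhe40 was lower (-0.52). The glycolytic genes Ldha (0.18), Pgk1 (0.21) and Aldoa (0.048) were not called. Of 8 other genes of 2-oxoglutarate or ascorbate use or of the hypoxia response, 1 was called higher, Hif1a, which encodes the oxygen-regulated subunit of hypoxia-inducible factor (129 and 86.3 CPM with PBS, 332 and 347 CPM with IL-1β). TGF-β and YAP induced genes had a median log2 fold change of -0.72 over 11 tested, with Tgfbi (1.46) and Skil (0.79) called higher and 0 called lower. Tagln (-1.48), Acta2 (-1.20) and Ccn2 (-0.72) were not called.

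In the sorted progenitors several of these genes were near the limit of detection. In LSK cells 5 of the 10 members had enough counts to be tested. Loxl4 had 0 counts in every LSK and LK library, where a count of 0 allows up to 3 counts, or 0.154 to 0.743 CPM depending on the library. Loxl2 had at most 3 counts in each LSK and LK library. Lox had 6, 6 and 8 counts in LSK with PBS and 1 and 1 with IL-1β, and P4ha2 had 5, 0 and 5 and then 0 and 0. Loxl1 had 1, 0 and 4 counts in LSK with PBS and no count with IL-1β. Among the LK libraries, Lox had 10, 9 and 2 counts with PBS and 3 and 4 with IL-1β, and Loxl1 at most 3. These counts were too low to compare treatments. Of the 16 mesenchymal markers, 6 in LSK and 5 in LK cells had at most 3 counts in every library, among them Pdgfra, Prrx1, Lepr and Lum, whereas others were present, such as Pdgfrb (37.9 to 78.2 CPM in LSK) and Eng (63.6 to 142 CPM in LSK). The list summed to 177 to 247.5 CPM in LSK and 178 to 189 CPM in LK cells with PBS, and to 155 to 169 and 131 to 153 CPM with IL-1β.

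With PBS, the 5 members with enough counts in LSK cells to be tested there (Loxl3, Plod1, Plod2, Plod3 and P4ha1) were each called higher in MSC than in LSK cells, where 31.2% of 15393 genes were called higher and 27.2% lower. The 6 tested in LK cells, which include P4ha2, were likewise each called higher in MSC, where these shares were 31.9% and 29%. The other members passed the filter on low counts in the joint fit only through their MSC libraries, so they had to differ, and their values are a description. The MSC libraries are the same in both comparisons. Lox was higher than in LSK cells by 9.89 ± 0.53 on the log2 scale (SE) and than in LK cells by 9.78 ± 0.53. Loxl2 was at least 467-fold higher than in LSK and at least 447-fold higher than in LK cells, against a floor of 3 counts in each library. Loxl1 was at least 566-fold higher than in LK cells on the same floor, and Loxl4 at least 7.26-fold and 6.94-fold higher. Loxl3 differed by 3.34 and 4.21 and Plod1 by 3.68 and 4.19 on the log2 scale. P4ha2 differed from LK cells by 5.80 on the log2 scale, against 2.93 for P4ha1, its paralog, which differed from LSK cells by 2.27. The smallest differences were those of Plod2 to LSK (1.02 ± 0.40 SE, edgeR adjusted p = 0.0422) and of Plod3 to LK cells (1.26 ± 0.16 SE, adjusted p = 8.95e-06). Population, culture, the macrophage RNA of the MSC libraries and Jak2 genotype go together in these comparisons and cannot be told apart.

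Plod3 was the member with the highest level per length in both progenitor populations, at 12.6 ± 1.29 FPKM in LSK and 18.7 ± 2.79 FPKM in LK cells with PBS (SD, n = 3). P4ha1 followed at 8.12 ± 3.51 FPKM in LSK, where its range overlapped that of Plod3, and at 5.15 ± 1.09 FPKM in LK cells, where it did not. Plod1, Plod2 and Loxl3 lay between 1.604 and 1.81 FPKM in LSK with overlapping ranges. In LK cells they averaged 1.27, 0.434 and 0.857 FPKM.

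Plod3 rose with IL-1β in LSK cells, the 1 member called there of 5 tested, where 0.32% of 13132 genes were called higher and 0.312% lower. It stood at 58.6, 70.4 and 61.6 CPM with PBS and at 157 and 179 CPM with IL-1β. The treatments did not overlap, and the log2 fold change was 1.40 ± 0.23 (SE, edgeR adjusted p = 0.0306). Plod3 was the 1 member of 5 with both IL-1β values above all PBS values, and 0 had them below, where these shares were 18.2% and 21.4% of all genes tested. The call was lost with limma-voom (adjusted p = 0.0588), without PBS replicate 1 (0.0851) and without IL-1β replicate 1 (0.138) or replicate 2 (0.240), although its log2 fold change was at least 1.33 in all alternatives. P4ha1 was at 35.1, 53.7 and 22.6 CPM with PBS and 45.3 and 34.4 CPM with IL-1β, which overlap (0.11 ± 0.37 SE). Plod1 (-0.19 ± 0.44 SE), Plod2 (-0.11 ± 0.49 SE) and Loxl3 (-0.070 ± 0.84 SE) overlapped between treatments as well and were not called. Loxl3 ranged from 2.40 to 18.2 CPM among the PBS libraries alone, with PBS replicate 2 the highest.

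In LK cells 6 members were tested and 2 were called higher, Plod3 and P4ha1, where 6.77% of 12835 genes were called higher and 2.57% lower. Plod3 was at 73.8, 85.4 and 101 CPM with PBS and at 249.9 and 254 CPM with IL-1β. The lowest IL-1β value was thus far above the highest PBS value (log2 fold change 1.54 ± 0.13 SE, edgeR adjusted p = 0.000968), and Plod3 was called under all 12 alternatives tried. P4ha1 was at 25.5, 22.8 and 16.9 CPM with PBS and at 42.6 and 37.8 CPM with IL-1β. The log2 fold change was 0.89 ± 0.19 (SE, edgeR adjusted p = 0.0236), and the call was lost without PBS replicate 2 (adjusted p = 0.0726), IL-1β replicate 1 (0.277) or IL-1β replicate 2 (0.111). P4ha2 was low, with 21, 17 and 9 counts with PBS and 4 and 0 with IL-1β, and was not called (edgeR adjusted p = 0.316). Without overlap, 2 members lay above their PBS values and 1, P4ha2, below, where these shares were 23.5% and 22.2% of all genes tested. Plod1 (0.29), Plod2 (0.35) and Loxl3 (0.24) overlapped between treatments and were not called.

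**Figure D4:**
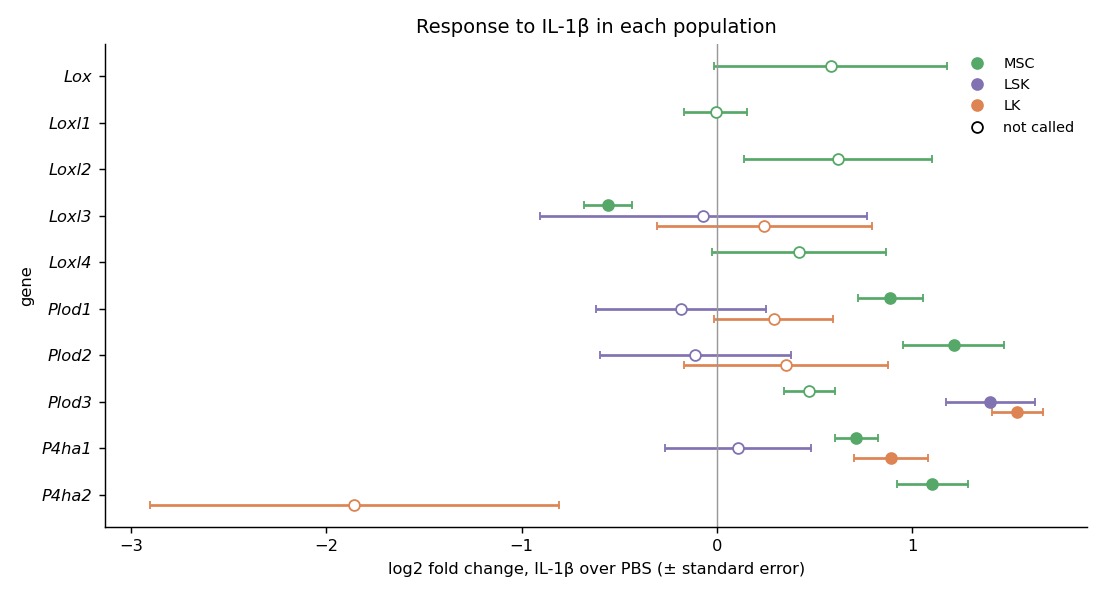
Log2 fold change of IL-1β over PBS with its standard error for each member tested in MSC (green), LSK (purple) and LK (orange), filled where the gene was called. Plod3 lies at 1.40 in LSK and 1.54 in LK against 0.47 in MSC, and Lox, Loxl1, Loxl2 and Loxl4 were tested in MSC alone.

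Markers of other blood cell types moved with IL-1β in the same progenitor libraries. The summed level of 10 neutrophil granule genes went from 2202 to 3181 CPM in LSK with PBS to 10030 to 11740 CPM with IL-1β, and from 4414 to 9561 CPM in LK with PBS to 18230 to 21340 CPM with IL-1β. Of these genes, 4 of 9 tested in LSK and 7 of 10 tested in LK were called higher and 0 lower, with Elane, Prtn3, Mpo and Lcn2 called in both. Of all genes tested, 0.32% in LSK and 6.77% in LK were called higher, and 0.312% and 2.57% lower. Stem and progenitor markers summed to 1831 to 2351 CPM in LSK with PBS and 1173 to 1350 CPM with IL-1β. In LK they summed to 621 to 807 CPM with PBS and 593 to 770 CPM with IL-1β. The 6 erythroid markers summed to 2061 to 2585 CPM in LK with PBS and 1348 to 1511 CPM with IL-1β, with Gata1, Klf1 and Car1 called lower and 0 higher, and in LSK to 214 to 254 and 132 to 384 CPM with 0 of 6 called. The IL-1β libraries were also shallower than the PBS libraries of their population. The part of these shifts in the rise of Plod3 and P4ha1 was not tested. It is not stated whether LSK and LK cells came from the same mice. The rises of Plod3 in both populations may therefore not be independent.

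The responses of MSC and progenitors were compared as a difference of log2 fold changes in one fit of all 14 libraries. Of the 5 members with enough counts in both populations (Loxl3, Plod1, Plod2, Plod3 and P4ha1), Plod3 was called between MSC and LSK cells, with a difference of -0.89 ± 0.24 (SE, edgeR adjusted p = 0.0352), where 9.27% of 15393 genes differed. No member was called without MSC PBS replicate 3, MSC IL-1β replicate 1 or 2, LSK PBS replicate 1 or 3, LSK IL-1β replicate 2, LK PBS replicate 2, or LK IL-1β replicate 1 or 2. Against LK cells the difference for Plod3 was -0.95 ± 0.24 (SE, adjusted p = 0.0594) and no member was called, where 2.04% of genes differed. P4ha2, tested in LK but not in LSK cells, had a difference of 3.02 ± 0.94 (SE, edgeR adjusted p = 0.157) to LK cells. It rested on 4 and 0 counts in the LK libraries with IL-1β. Both comparisons use the same MSC libraries. For Plod1 the difference was 1.09 ± 0.44 (SE, adjusted p = 0.136) to LSK and 0.71 ± 0.44 (0.582) to LK cells, and for Plod2 1.31 ± 0.61 (0.194) and 0.93 ± 0.65 (0.643). The calls of Plod1 and Plod2 in MSC were not shown to differ from their responses in the progenitors. For P4ha1 the difference was 0.64 ± 0.43 (0.379) to LSK and -0.064 ± 0.43 (adjusted p = 1) to LK cells. The median difference over all genes was 0.15 to LSK and 0.13 to LK cells. The treatments also differed, 72 h in culture against 16 weeks in the mouse.

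Partner genes in the progenitors were counted by the same lists. P4hb rose in LK cells from 722, 619 and 893 CPM to 1771 and 1583 CPM (log2 fold change 1.17 ± 0.16 SE, edgeR adjusted p = 0.00505). In LSK cells it had a log2 fold change of 1.21 ± 0.27 (SE) that did not pass the test (adjusted p = 0.0824). Tmem38b was called higher in both (2.14 in LK and 2.04 in LSK) and P3h1, a prolyl 3-hydroxylase, in LK (0.94). In all, 3 of 8 partners tested in LK and 1 of 9 in LSK were called higher and 0 lower, with medians of 0.43 and 0.27 against -0.026 and -0.061 for all genes tested. Of all genes tested, 6.77% in LK and 0.32% in LSK were called higher, and 2.57% and 0.312% lower. Of the 10 collagen chains, 4 were tested in each progenitor population. Col1a1 and Col3a1 were below 1.3 CPM in every LSK and LK library, whereas Col4a1 (36.5 to 67.1 CPM) and Col4a2 (42.6 to 77.9 CPM) were present in LSK with PBS and Col5a1 (35.5 to 66.5 CPM) in LK with PBS. None was called in LSK, and Col5a1 was called lower in LK (-1.31).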

How the data were processed

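The values the authors deposited are raw counts of read pairs per gene in one table per population (14 libraries). Per the labels and file headers, the authors trimmed reads with fastp 0.20.0, aligned them with HISAT2 2.0.1 to GRCm38 after rRNA depletion, and counted pairs with featureCounts 2.0.2 in reverse-stranded mode. The methods also name GenomicAlignments. Pairs that mapped to several places or genes are not counted by default, so near-identical copies lose reads. Symbols came from GENCODE M21 (55141 of 55487 identifiers). The groups and replicate numbers were those of the labels. A further IL-1β MSC library named in a table header was not analysed here.

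Members and gene lists were chosen with earlier results of these data known. Every member was named, and the genes of the lists by count with examples. Tests used edgeR 4.0.16 under R 4.3.3 on counts kept by filterByExpr and scaled by TMM (robust glmQLFit, then glmQLFTest), treatment being the only factor within each population. MSC and progenitors were compared in a joint fit of 6 groups. The standard error is the log2 fold change over the square root of F. The floor of 3 counts per library covers counting error only, since PCR copies are not independent. Alternatives were DESeq2 1.42.0, limma-voom (limma 3.58.1), DESeq2 size factors, upper-quartile factors, library totals, no filter, a minimum of 10 reads in 2 libraries or more, calls by adjusted p alone, a replicate block, each library left out and, added after seeing the data, scaling to mesenchymal markers. The tests were checked on simulated counts with log2 changes of 2, larger than any change with IL-1β called among the members. Of the changed genes, 85.9% were recovered in MSC, 67.4% in LSK and 84.1% in LK. For the difference of responses, 49.2% were recovered between MSC and LSK and 46.6% between MSC and LK. In MSC, 19 false calls stood beside 170 recovered genes. Recovery at the smaller changes of the members was not tested. Figures were drawn with matplotlib 3.10.9.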

Additional observations from a re-analysis of the deposited data

Results flagged for a closer look

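Among the 5 members with enough counts in both, Plod3 was the 1 whose response to IL-1β was called as different between MSC and LSK cells by a test of the difference itself, where 9.27% of all genes were called. Its log2 fold change in MSC minus that in LSK cells was -0.89 (edgeR adjusted p = 0.0352), with Plod3 higher in 2 of 2 IL-1β libraries than in every PBS library in MSC (0.47) and in LSK cells (1.40) alike. No member was called in this comparison when any 1 of 9 of the 14 libraries was left out, and the difference of Plod3 to LK cells (-0.95) was not called (edgeR adjusted p = 0.0594). No group had the 4 samples needed to look for a library far from the others.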

How the results depend on the processing

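In MSC, the 4 members called higher became 0 to 7 and the 1 called lower 0 to 1 with single libraries left out, and with libraries scaled to mesenchymal markers 0 were called lower. In LSK the 1 member called higher became 0 with limma-voom and 0 to 1 with libraries left out, and in LK the 2 became 1 to 2. The difference of responses called 1 member between MSC and LSK, 2 with no filter and 0 to 2 with libraries left out. Between MSC and LK it called 0, but 1 with DESeq2 size factors, upper-quartile factors, no filter or library totals only, 2 with DESeq2, and 0 to 1 with libraries left out. The cause was not tested. The members called higher in MSC than in LSK numbered 9 or 10 and than in LK 10 in 22 alternatives, counting those that passed the filter only through MSC.

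Directions turned for some values that were not called. In MSC, Loxl1 was at 0.020 with limma-voom and 0.036 with no filter, and in LSK, Loxl3 was at 0.33 with limma-voom. With single libraries left out, the log2 fold changes ranged in MSC from -0.048 to 1.73 for Lox and from -0.21 to 0.22 for Loxl1. In LSK they ranged from -0.72 to 1.31 for Loxl3, from -0.15 to 0.49 for P4ha1, from -0.47 to 0.12 for Plod1 and from -0.83 to 0.36 for Plod2. In LK they ranged from -0.16 to 0.56 for Loxl3, from -0.21 to 0.65 for Plod1 and from -0.11 to 0.82 for Plod2.

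With the replicate number as a block, P4ha1 in LSK was at -0.13 and Loxl3 in LK at -0.15, and no call of a member changed. The deviations of same-numbered libraries correlated at 0.17 and -0.028 in LSK and -0.12 and 0.078 in LK, and the treatments used different mice, so the numbers were not taken as pairs. In MSC no paired analysis was possible because its groups share 1 replicate number only. Over all genes, calls in MSC ranged from 38 to 2038 higher (945 as reported) and from 0 to 1781 lower (570), in LSK from 3 to 385 (42) and 0 to 514 (41), and in LK from 61 to 1482 (869) and 5 to 926 (330). Low counts limited the comparisons of Loxl4 in MSC and of all the oxidases other than Loxl3 in the progenitors.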

Other observations

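Of the hypoxia-inducible genes, 11 of 19 tested in LK cells were called higher with IL-1β and 0 lower, with a median log2 fold change of 0.79. Of all genes tested in LK, 6.77% were called higher and 2.57% lower. The called hypoxia-inducible genes were among those that follow. They included the glucose transporter Slc2a1 (1.86), the glycolytic genes Eno1 (1.22), Pgk1 (1.00) and Pfkfb3 (1.41), Ero1l (1.19), which reoxidizes protein disulfide isomerases such as P4hb, and Vegfa (0.93). Hif1a rose as well, from 26.6, 27.2 and 34.7 CPM to 92.9 and 90.7 CPM (1.64 ± 0.14 SE, edgeR adjusted p = 0.000968). In LSK cells 0 of 19 were called and the median was 0.48, where 0.32% of all genes tested were called higher and 0.312% lower. Whether the list differed between populations was not tested. Bhlhe40 was called higher in LK (1.94) and lower in MSC (-0.52).

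By the correlation of log2 CPM over all 14 libraries, as a description over 11603 genes, the genes most like Lox were Loxl2 (Pearson r = 0.9992), Col5a2 (0.9987) and Ccn5 (0.9985). Those most like Plod2 were Fgd3 (0.981), Tor3a (0.973) and Susd3 (0.966), and those most like P4ha1 were Rnd3 (0.982), Tgoln1 (0.981) and Adamtsl4 (0.980). The points share their population and treatment, and most of the spread lies between MSC and progenitors.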
